A study of Mus musculus with 40 samples.

Results

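The 8 genes described here encode transcription factors of epithelial-mesenchymal transition (EMT), taken by name from 4 families: the Snail zinc-finger factors Snai1 and Snai2, the basic helix-loop-helix factors Twist1 and Twist2, the zinc-finger homeodomain factors Zeb1 and Zeb2, and the paired-related homeobox factors Prrx1 and Prrx2. They are 8 of the 51789 genes in a table of 3′ RNA-sequencing counts (QuantSeq, in which reads are counted at the 3′ end of a transcript) of mouse melanoma cell lines, and all 8 Ensembl identifiers were found in it. The table holds 40 libraries in 20 groups of 2. B16-F10 cells were a control clone and a clone labelled Bmal1 KO. YUMM2.1 cells, from a mouse tumour with mutant Braf, 1 lost copy of Cdkn2a and a stabilized β-catenin among its alleles, were used as the parental line with an intact Bmal1 gene and as aC3, a single Bmal1-null clone made by genome editing. YUMM1.7 cells carry mutant Braf and lack Cdkn2a, among other alleles. Each of aC3, YUMM2.1 and YUMM1.7 received by lentivirus an empty vector (EV), wild-type Bmal1 (WT-Bmal1) or dHLH-Bmal1, a form of the clock factor that lacks its DNA-binding domain, abbreviated bH or dH in the labels. In a further experiment YUMM2.1 cells with each construct also carried a control hairpin (shNC) or 1 of 2 hairpins against Myh9, the heavy chain of non-muscle myosin IIA (shMyh9 #2 and #4). The clone aC3 is 1 clone and each B16-F10 genotype is 1 clone, so clone and genotype cannot be told apart.

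In EMT the Snail and Zeb factors repress epithelial genes, above all cadherin and cell-junction genes, by binding E-box sequences in their promoters, and all 4 families favour a motile, matrix-producing state. Snai1 and Snai2 are zinc-finger repressors, and Twist1 and Twist2 bind DNA as dimers with E proteins. Zeb1 and Zeb2 recruit corepressors, and Prrx1 and Prrx2 are homeobox factors of mesenchymal tissues. Melanocytes descend from the neural crest and are not epithelial. In melanoma Zeb2 and Snai2 are known as factors of the differentiated, melanocytic state, and Zeb1 and Twist1 as factors of the dedifferentiated state.

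Values are CPM, counts scaled to a common library total, with 1 TMM scaling of all libraries that corrects for the depth and composition of each. Changes are log2 fold changes ± SE from edgeR's quasi-likelihood test, and a gene is said to have passed the test where the Benjamini-Hochberg p over all genes tested in that comparison was under 0.05. The least deeply sequenced library had 3643332 counts and the deepest 22970049. At the median total, 10021164.5 counts, 1 CPM is about 10 counts. Before the results, 1 doubt about labels has to be stated. Of 20 columns of the supplementary tables compared with the deposited libraries, 18 matched the library of their own label and 2 matched each other's: the libraries labelled YUMM2.1 EV replicate 2 and YUMM2.1 WT-Bmal1 replicate 1 appear exchanged. The labels were kept, and calls that rest on these libraries were also computed with the 2 labels exchanged and with both libraries left out, with values given for the main results. Myh9 fell with both hairpins in all 3 construct backgrounds, with log2 changes of -1.51, -2.04 and -1.69 for hairpin #2 and -0.52, -0.93 and -0.42 for hairpin #4 in EV, WT-Bmal1 and dHLH-Bmal1 cells. For Bmal1 itself (symbol Arntl) the B16 controls stood at 15.2 and 10.7 CPM and the clone labelled KO at 13.3 and 11.5 CPM. The Bmal1-null aC3 EV libraries had more Arntl than YUMM2.1 EV (33.1 and 30.5 against 15.9 and 13.9 CPM, 1.08, adjusted p = 0.0210). With WT-Bmal1 against EV Arntl was lower in aC3 (-0.83, adjusted p = 0.00356) and did not pass in YUMM2.1 (0.10), YUMM1.7 (0.68) or with shNC (0.27). With dHLH-Bmal1 it was higher in YUMM2.1 (1.54), YUMM1.7 (1.05) and with shNC (0.60), and did not pass in aC3 (0.27). These 3′ counts therefore do not follow the clone and WT-Bmal1 labels, and whether they hold construct transcripts or lie outside the edited stretch is not given in the sources used here. Of the melanocyte markers, Dct, Tyrp1 and Mlana had no count in either EV group of YUMM2.1 and YUMM1.7 cells, whereas Sox10, the neural crest and melanocyte factor, was at 501 and 484 CPM in YUMM2.1 EV but at 1.51 and 1.12 CPM in YUMM1.7 EV. In B16 controls Dct reached 16058 and 17366 CPM. Of the immune and endothelial markers Cd3e had no count in any library and Ptprc, the pan-leukocyte marker, stayed at or below 0.288 CPM, whereas the endothelial markers Pecam1 and Cdh5 ran from 3.7 to 13.2 CPM and from no count to 19.9 CPM and the macrophage marker Cd68 from 0.356 to 3.82 CPM. All are bulk cell-line samples, in which fewer cells of a type and less RNA per cell cannot be told apart.

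Positions are on mm10, the same assembly as GRCm38, on which the annotation used here is based. Snai1 is at chr2:167538195-167542814 on the plus strand, Prrx2 at chr2:30834972-30881251 (plus) and Zeb2 at chr2:44983632-45117395 (minus). Twist2 is at chr1:91801461-91848028 (plus), Prrx1 at chr1:163245119-163313710 (minus), Twist1 at chr12:33957671-33959829 (plus) and Snai2 at chr16:14705852-14709385 (plus). The position of Zeb1 is not given here. Snai1, Snai2, Twist1 and Prrx2 overlap no other annotated gene. Twist2 overlaps 2 other genes, Zeb1 3, Zeb2 5 (with the antisense transcript Zeb2os) and Prrx1 3. Whether reads were counted by strand is not given in the sources used here, so reads of an antisense partner could be counted with these 4 genes. Each of the 4 also overlaps at least 1 gene on its own strand, with which reads could be shared however strand was handled.

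Promoter windows of 3 genes are shown. Prrx2 had the largest dHLH-Bmal1 response of the 8 factors in YUMM2.1 cells, and among the windows searched those of Snai1 and Zeb2 held a motif. They are RefSeq windows on GRCm38.p6, from 250 bases before to 50 after a transcript start, 5′ to 3′ on the gene's strand. Capitals mark a motif.
Prrx2, chr2:30845117-30845416, plus strand: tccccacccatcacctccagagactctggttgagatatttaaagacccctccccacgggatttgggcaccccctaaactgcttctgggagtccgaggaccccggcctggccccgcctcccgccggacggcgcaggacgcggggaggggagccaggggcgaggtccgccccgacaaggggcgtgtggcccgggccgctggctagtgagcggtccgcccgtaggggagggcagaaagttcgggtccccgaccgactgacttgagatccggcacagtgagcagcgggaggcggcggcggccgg
Snai1, chr2:167537945-167538244, plus strand: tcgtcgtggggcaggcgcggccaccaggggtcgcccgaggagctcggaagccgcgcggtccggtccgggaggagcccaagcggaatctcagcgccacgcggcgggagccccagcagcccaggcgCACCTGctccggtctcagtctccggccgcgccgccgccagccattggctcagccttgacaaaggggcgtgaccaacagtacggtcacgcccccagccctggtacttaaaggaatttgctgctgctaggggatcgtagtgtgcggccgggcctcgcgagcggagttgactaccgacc
Zeb2, chr2:45110228-45110527, minus strand: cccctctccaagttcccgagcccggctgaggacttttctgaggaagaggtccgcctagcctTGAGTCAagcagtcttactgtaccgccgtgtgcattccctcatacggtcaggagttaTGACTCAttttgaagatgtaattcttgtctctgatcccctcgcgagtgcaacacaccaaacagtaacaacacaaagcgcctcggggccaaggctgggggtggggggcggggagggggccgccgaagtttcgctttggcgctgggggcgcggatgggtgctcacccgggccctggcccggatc
The searched motifs, on both strands, were CACGTG (the E-box bound by Clock-Bmal1), CACCTG (the E-box of Snail and Zeb factors), TGACTCA (the AP-1 site) and the CArG box of serum response factor. Windows of 6 of the 8 genes were searched, with 4 windows for Zeb2. No window of Snai2 or Zeb1 was searched or is shown here. CACGTG and the CArG box were in none of the windows of Twist1, Twist2, Prrx1, Prrx2, Snai1 and Zeb2, while 7.15% and 1.63% of all 32851 windows held them. CACCTG was in the Snai1 window, 126 bases before the start, and in 20.2% of all windows. The AP-1 site was in this 1 Zeb2 window at 2 places, 189 bases before the start as TGAGTCA and 132 bases before it as TGACTCA, and in 5.20% of all windows. A match is a string of letters and not a bound site. The Prrx2 window and the Zeb2 window shown each belong to a transcript that starts inside the annotated gene.

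The 3 YUMM-type cell populations and B16-F10 cells expressed different sets of the 8 factors. Zeb2 was abundant in every group, and Prrx1, Zeb1 and Twist1 were abundant in the YUMM cells and scarce in B16-F10 cells. Snai1 was a YUMM1.7 transcript. Prrx2 ranged from no count in the aC3 EV libraries to above 40 CPM in YUMM1.7 cells. Because 3′ counts are made once per transcript, levels of different genes can be set beside each other without a length correction, but capture at each 3′ end still differs between genes, so the comparisons below are of 1 gene between groups.

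**Figure D1:**
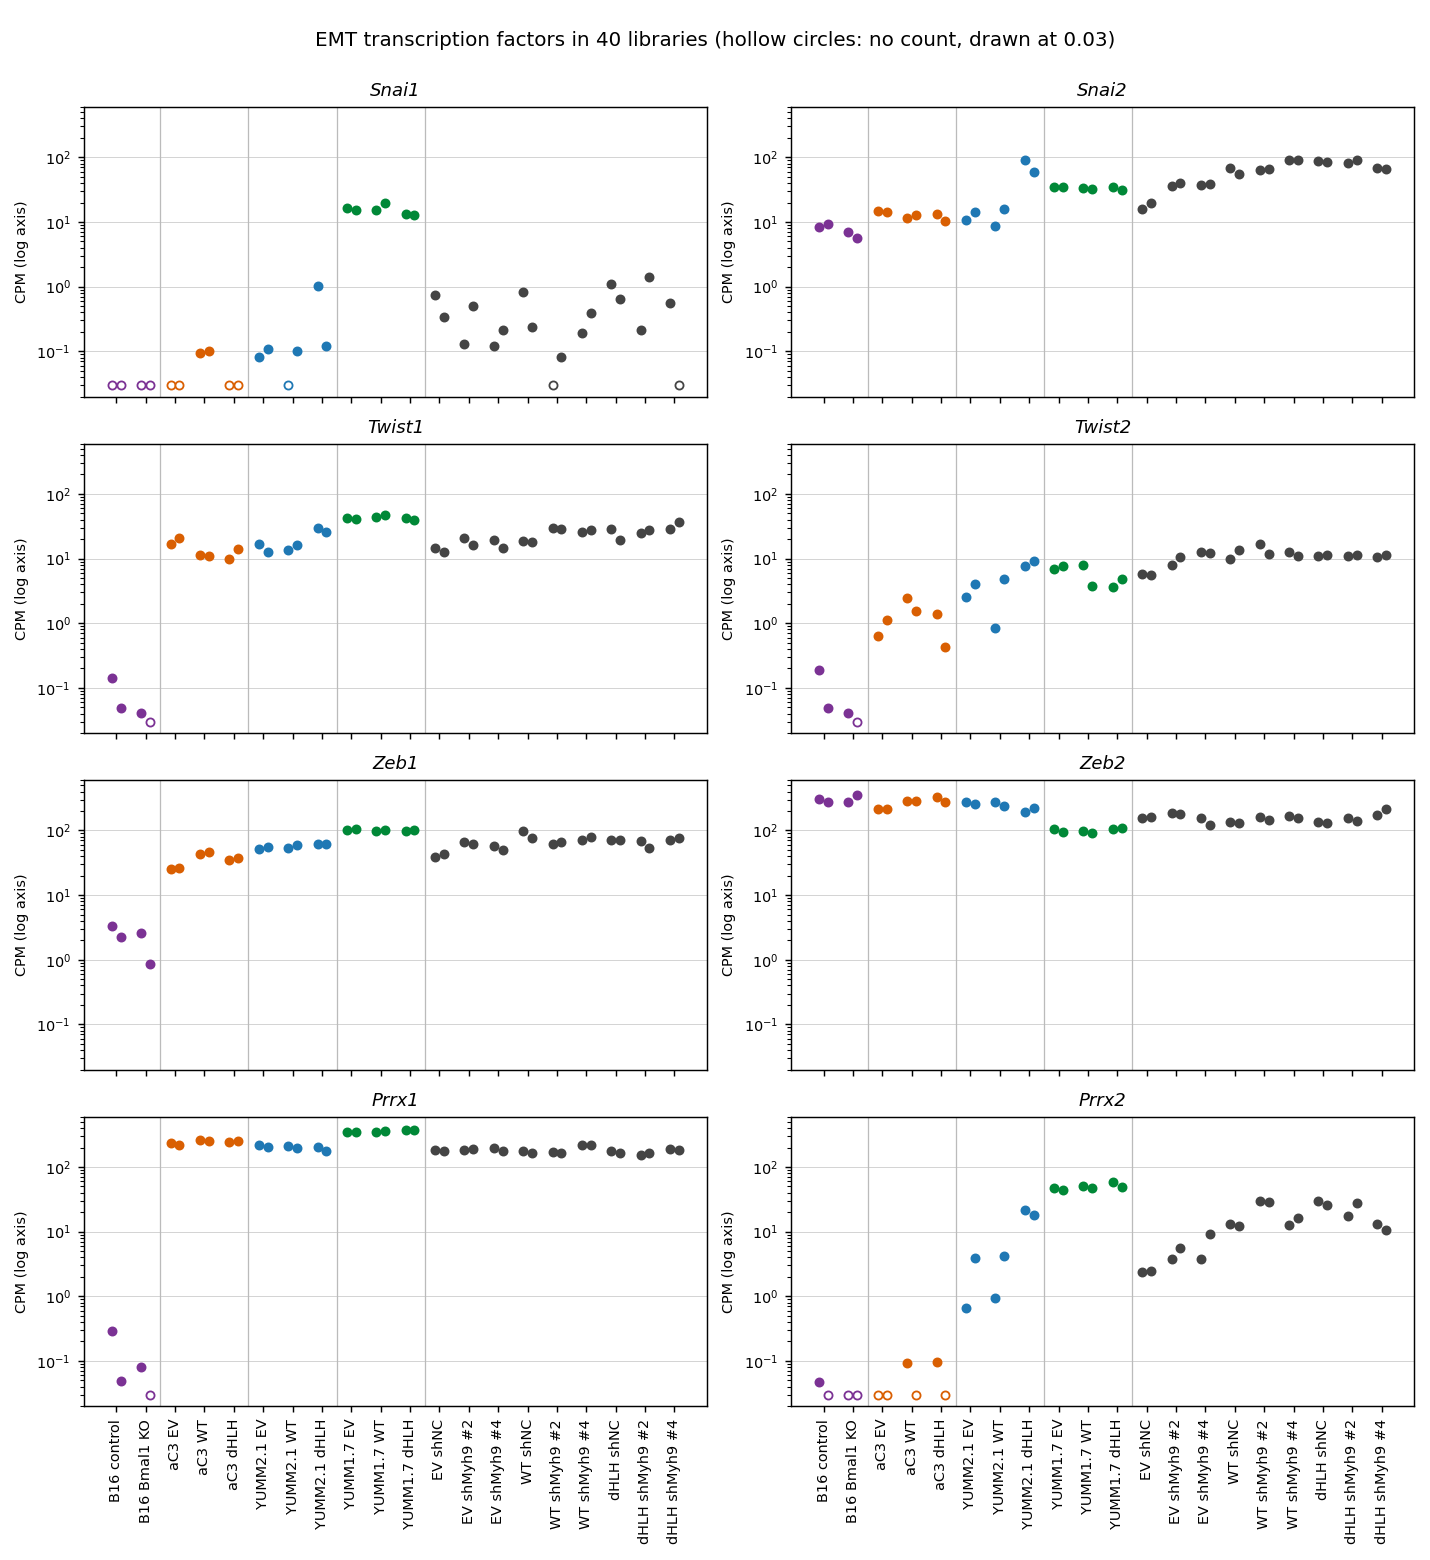
CPM (log axis) of each EMT transcription factor in all 40 libraries, 2 points per group, with hollow circles at 0.03 for libraries with no count. Purple is B16-F10, orange aC3, blue YUMM2.1, green YUMM1.7 and grey the YUMM2.1 hairpin experiment. Snai1 lies between 12.8 and 19.3 CPM in YUMM1.7 and at or below 1.41 CPM elsewhere, while Zeb2 lies between 90.6 and 348 CPM in all libraries.

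Of the Snail factors, Snai1, a classical repressor of E-cadherin, was at 16.5 and 15.2 CPM in YUMM1.7 EV, 15.2 and 19.3 CPM with WT-Bmal1 and 13.1 and 12.8 CPM with dHLH-Bmal1. In the other 34 libraries it ran from no count to 1.41 CPM, and the B16 libraries and the aC3 EV and dHLH-Bmal1 libraries had no Snai1 count. The 3 groups of YUMM1.7 cells therefore did not overlap with any other group. Counts of Snai1 in YUMM1.7 EV were 168.9 times those in YUMM2.1 EV (95% exact binomial interval 46.4 to 1400, counting error only, from 347 and 2 counts). The ratio with exchanged labels was 376 (67.1 to 14902, from 1 YUMM2.1 count). Snai2, the Snail factor of neural crest and melanocytes, was at 34.7 and 34.6 CPM in YUMM1.7 EV, 10.7 and 14.3 CPM in YUMM2.1 EV cells, 14.7 and 14.5 CPM in aC3 EV and 8.48 and 9.30 CPM in B16 controls. YUMM1.7 was the highest of these 4 groups. The difference between aC3 and YUMM2.1, 0.23 ± 0.18 on the log2 scale, missed edgeR's test (adjusted p = 0.632).

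Of the Twist factors, which drive mesoderm and neural crest programmes, Twist1 was at 42.8 and 41.1 CPM in YUMM1.7 EV, 16.8 and 20.5 CPM in aC3 EV, 16.9 and 12.8 CPM in YUMM2.1 EV cells, against 0.143 and 0.0485 CPM in B16 controls. Aside from aC3 and YUMM2.1, these groups did not overlap. Twist2 was lower, with 6.95 and 7.77 CPM in YUMM1.7 EV, 2.57 and 4.1 CPM in YUMM2.1 EV cells, 0.626 and 1.11 CPM in aC3 EV and 5 counts in the 2 B16 control libraries together. Both paralogs were near the counting floor in B16-F10 cells.

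Of the Zeb factors, Zeb1 was at 102 and 106 CPM in YUMM1.7 EV, 51.3 and 55.5 CPM in YUMM2.1 EV cells, 25.5 and 26.6 CPM in aC3 EV and 3.38 and 2.28 CPM in B16 controls, 4 groups with no overlap. Zeb2 had another order, with 302 and 277 CPM in B16 controls, 275 and 257 CPM in YUMM2.1 EV cells, 214 and 215 CPM in aC3 EV and 104 and 95.8 CPM in YUMM1.7 EV. The lowest Zeb2 group was thus the highest Zeb1 group. The 4 groups did not overlap for Zeb2, though B16 controls and YUMM2.1 EV, its neighbours at the top, missed the test (0.09 ± 0.09, edgeR adjusted p = 0.412).

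Of the paired-related factors, Prrx1, a homeobox factor of limb and craniofacial mesenchyme, was at 349 and 348 CPM in YUMM1.7 EV, 233 and 221 CPM in aC3 EV, 219 and 204 CPM in YUMM2.1 EV and 7 counts in both B16 controls together. Over the 36 YUMM and aC3 libraries it ran from 153 to 379 CPM, a narrow range beside that of its paralog. Prrx2 was at 47.5 and 44.6 CPM in YUMM1.7 EV and at 0.664 and 3.88 CPM in YUMM2.1 EV. It had no count in either aC3 EV library and 1 count in both B16 controls together.

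In the comparison of YUMM1.7 EV with YUMM2.1 EV 7 of the 8 factors passed the test, against 37.1% of all genes tested. Prrx2 was higher in YUMM1.7 by 4.42 ± 0.50 (adjusted p = 0.000144), Twist1 by 1.48 ± 0.19 (adjusted p = 0.000187), Snai2 by 1.47 ± 0.17 (adjusted p = 0.000105), Zeb1 by 0.95 ± 0.13 and Prrx1 by 0.71 ± 0.12. Snai1 also passed. Of the 7, Zeb2 was lower, at -1.42 ± 0.09 (adjusted p = 2.18e-06). Twist2 differed by 1.14 ± 0.41 with an adjusted p of 0.0505. With the 2 doubtful labels exchanged all 8 passed, Twist2 at 2.08 (adjusted p = 0.00251) and Prrx2 at 5.82, against 48.5% of all genes. Without both libraries all 8 passed as well.

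In B16 controls against YUMM2.1 EV 6 of 8 passed, against 54.3% of all genes, and all 6 were lower in B16. Prrx1 differed by -10.25 ± 0.24 (adjusted p = 1.40e-09), Twist1 by -7.18 ± 0.35, Twist2 by -4.71 ± 0.59 and Zeb1 by -4.26 ± 0.17 (adjusted p = 2.06e-08). The first 3 rest on 7, 4 and 5 B16 counts, and without any 1 library they ran from -11.83 to -9.52, from -8.01 to -6.65 and from -5.84 to -4.08. After the exchange of labels Twist2 stood at -3.77 and the other 3 at -10.28, -7.22 and -4.25, all past the test, and 5 factors passed against 61.7% of all genes. Prrx2 counts in YUMM2.1 EV were 85.9 times those in B16 (95% interval 14.6 to 3469, from 44 counts and 1). Of the 44 counts 36 were in the doubtful EV replicate 2. The ratio was 33.3 (5.29 to 1384) with the labels exchanged and 27.6 (3.71 to 1226) without both libraries. Snai2 was lower by a small step of -0.51 ± 0.17 (adjusted p = 0.0303). Its call was lost without B16 control replicate 1, B16 control replicate 2 or YUMM2.1 EV replicate 2 (differences from -0.72 to -0.30 and adjusted p up to 0.173 over all libraries left out), and with the labels exchanged (-0.17, adjusted p = 0.364). Zeb2 differed by 0.09 ± 0.09 (adjusted p = 0.412). Snai1 had 0 counts in B16 and 2 in YUMM2.1 EV, too few for a fold. Against YUMM1.7 EV all 8 passed, against 54.5% of all genes, and Zeb2 alone was higher in B16, by 1.52 ± 0.09 (adjusted p = 5.06e-07). Snai1 was at least 109.8-fold lower in B16, where a floor of 3 counts per library stands for no count. Melanocyte markers differed with the same contrast: 9 of the 10 tested were higher in B16 than in YUMM2.1 EV and Sox10 was lower. Their part in the result was not tested.

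In aC3 EV against YUMM2.1 EV, which asks how the Bmal1-null clone differs from its parental line, 1 of 8 factors passed, against 1.75% of all genes. Zeb1 was lower in aC3 by -1.04 ± 0.14 (adjusted p = 0.00580), and this call was lost without either aC3 EV library (adjusted p up to 0.132). With the labels exchanged 4 of 8 passed, against 9.76% of all genes. These were Zeb1 at -1.02, Zeb2 at -0.38 (adjusted p = 0.00422), Snai2 at 0.57 (adjusted p = 0.0326) and Prrx2 (adjusted p = 0.00397). Prrx2 was at least 8.32-fold lower in aC3 EV, which had 0 counts against 44 in YUMM2.1 EV. This bound was 2.94-fold with the labels exchanged and 2.43-fold without both doubtful libraries. Without both doubtful libraries Zeb1 (-0.98, adjusted p = 0.00110), Zeb2 (-0.36, adjusted p = 0.0268) and Prrx2 (adjusted p = 0.0209) passed. Across all 6 aC3 libraries Prrx2 had 2 counts.

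In B16-F10 cells none of the 3 factors with enough counts to be tested passed between the libraries labelled Bmal1 KO and the controls, against 0.440% of all genes, and none of the 3 had an unadjusted p under 0.05 in edgeR or passed DESeq2's test. Snai2 was at 8.48 and 9.30 CPM in controls and at 6.89 and 5.75 CPM in the KO libraries, a difference of -0.50 ± 0.26 (adjusted p = 0.490). The 2 groups did not overlap. Zeb1 differed by -0.72 ± 0.60 and Zeb2 by 0.10 ± 0.19 (adjusted p = 0.647 and 0.839). Without replicate 1 of the libraries labelled Bmal1 KO, Snai2 (-0.63, adjusted p = 0.0360) and Zeb1 (-1.71, adjusted p = 0.00816) passed, in a fit where 43.4% of all genes did. Snai1, Twist1, Twist2, Prrx1 and Prrx2 were below the count filter.

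In aC3 cells the question was what restoring Bmal1, or adding the form that cannot bind DNA, did to a Bmal1-null clone. Both constructs went with higher Zeb1 and Zeb2 and lower Twist1. Of the 6 factors tested 3 passed with WT-Bmal1, against 11.2% of all genes, and the same 3 factors passed with dHLH-Bmal1, against 10.9%. Zeb1 rose from 25.5 and 26.6 CPM in EV to 43.7 and 46.4 CPM with WT-Bmal1 and 35.0 and 38.0 CPM with dHLH-Bmal1. These are changes of 0.79 ± 0.11 (adjusted p = 0.000673) and 0.47 ± 0.11 (adjusted p = 0.0176). The 3 groups did not overlap, and the difference between the constructs, -0.31 ± 0.11, missed the test (adjusted p = 0.255).

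Zeb2 rose from 214 and 215 CPM in aC3 EV to 288 and 287 CPM with WT-Bmal1 and 324 and 275 CPM with dHLH-Bmal1, by 0.42 ± 0.09 (adjusted p = 0.00780) and 0.47 ± 0.09 (adjusted p = 0.00458). Twist1 was at 16.8 and 20.5 CPM in EV, 11.4 and 11 CPM with WT-Bmal1 and 9.999 and 14.0 CPM with dHLH-Bmal1. It changed by -0.74 ± 0.20 (adjusted p = 0.0263) and by -0.65 ± 0.19 (adjusted p = 0.0457). Both groups lay below the EV group. The Zeb1 call with WT-Bmal1 held without any 1 library of the pair of groups. The Zeb2 and Twist1 calls with WT-Bmal1 were lost without any 1 of the 4 libraries (changes of 0.42 for Zeb2 and from -0.88 to -0.59 for Twist1). With dHLH-Bmal1 all 3 calls were lost without either EV library and that of Twist1 also without dHLH-Bmal1 replicate 1 (adjusted p up to 0.128 for Zeb1, 0.0734 for Zeb2 and 0.308 for Twist1).

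Snai2 in aC3 cells was at 14.7 and 14.5 CPM in EV, 11.7 and 12.6 CPM with WT-Bmal1 and 13.4 and 10.5 CPM with dHLH-Bmal1, and did not pass (adjusted p = 0.401 and 0.337). Prrx1 changed by 0.19 ± 0.08 and 0.09 ± 0.08, and Twist2 by 1.2 ± 0.63 and 0.06 ± 0.69 around 0.43 to 2.45 CPM. None of the 6 factors passed between dHLH-Bmal1 and WT-Bmal1, against 0.877% of all genes. Zeb1 alone had an unadjusted p under 0.05 there, and none passed DESeq2's test. The 2 constructs share the EV libraries, so their likeness over these factors is not independent.

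**Figure D2:**
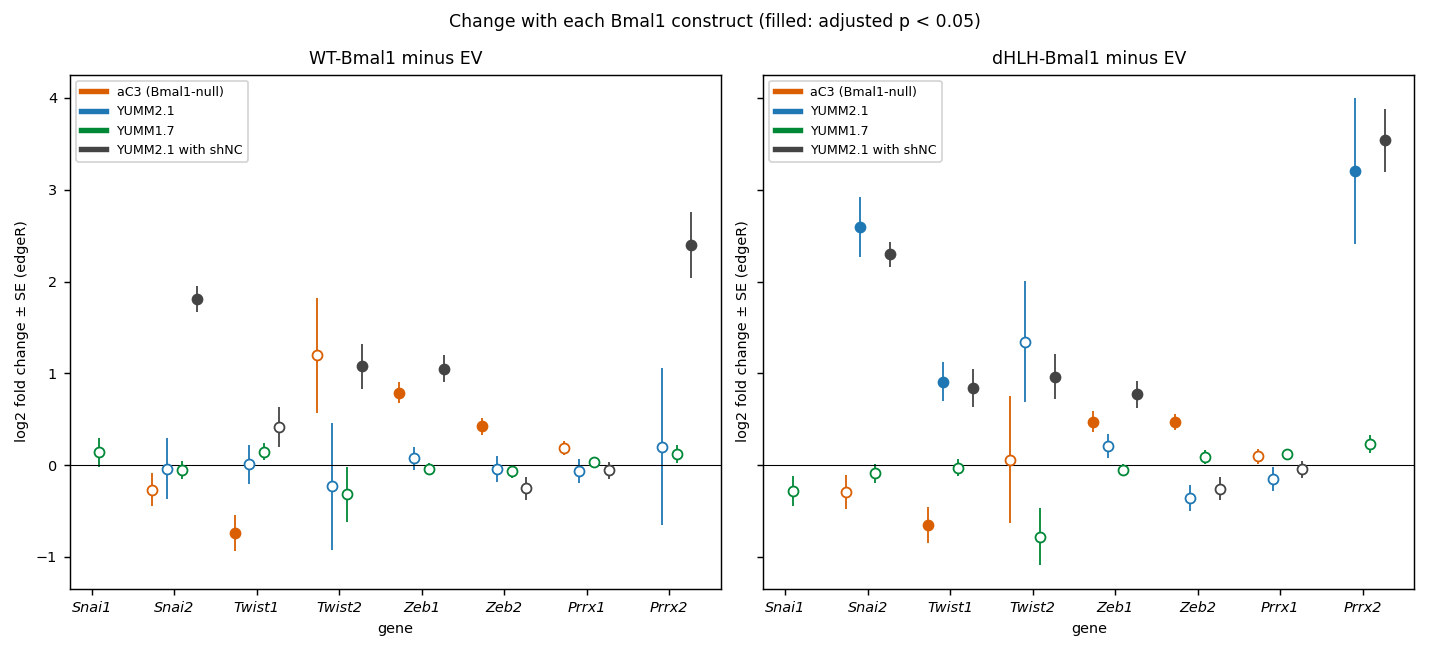
Log2 fold change ± SE (edgeR) of each factor with WT-Bmal1 (left) and dHLH-Bmal1 (right) against EV in aC3 (orange), YUMM2.1 (blue), YUMM1.7 (green) and YUMM2.1 with the control hairpin (grey), with filled symbols for adjusted p under 0.05. Snai2 and Prrx2 stand above 2 with dHLH-Bmal1 in both YUMM2.1 experiments, while no YUMM1.7 symbol is filled.

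In YUMM2.1 cells with intact Bmal1 the constructs went with another pattern. Snai2, Prrx2 and Twist1 were higher with dHLH-Bmal1 than with EV. Snai2 was at 10.7 and 14.3 CPM in EV, 8.80 and 15.7 CPM with WT-Bmal1 and 90.1 and 59.8 CPM with dHLH-Bmal1. Both dHLH-Bmal1 libraries lay above all 4 others. Of the 7 factors tested 3 passed in dHLH-Bmal1 against EV, against 13.2% of all genes. Snai2 rose by 2.59 ± 0.33 (adjusted p = 0.00512), and this held without any 1 library of the 2 groups and with the labels exchanged (2.94, adjusted p = 3.37e-05). Without both doubtful libraries it was 2.79 (adjusted p = 1.84e-05).

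Prrx2 was at 0.664 and 3.88 CPM in YUMM2.1 EV cells, 0.940 and 4.19 CPM with WT-Bmal1 and 22.0 and 18.3 CPM with dHLH-Bmal1. Within EV and within WT-Bmal1 the replicates stood far apart, the low libraries being replicate 1 of each construct and the high ones replicate 2 of each. Prrx2 rose by 3.21 ± 0.80 with dHLH-Bmal1 (adjusted p = 0.0413). With the labels exchanged the change was 4.64 ± 0.28 (adjusted p = 1.22e-05), and without both doubtful libraries 4.89 (adjusted p = 5.41e-06). As labelled the call was lost without EV replicate 1 or either dHLH-Bmal1 library (changes of 2.38 to 4.89 over the 4 libraries left out, adjusted p up to 0.109).

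Twist1 was at 16.9 and 12.8 CPM in EV, 13.8 and 16.4 CPM with WT-Bmal1 and 29.8 and 26.0 CPM with dHLH-Bmal1, a rise of 0.91 ± 0.21 (adjusted p = 0.0341). This call was lost without any 1 of the 4 libraries (adjusted p up to 0.115) and without the 2 doubtful libraries (0.71, adjusted p = 0.185), and kept with the labels exchanged (0.87, adjusted p = 0.00982). Twist2 was at 2.57 and 4.1 CPM in EV, 0.854 and 4.89 CPM with WT-Bmal1 and 7.66 and 9.15 CPM with dHLH-Bmal1. As labelled its change was 1.35 ± 0.66 (adjusted p = 0.234) and with the labels exchanged 2.28 ± 0.44 (adjusted p = 0.00532), and without both libraries it was 1.69 (adjusted p = 0.0281). With the replicate number as a block, as labelled, it was 1.40 (adjusted p = 0.0449). Zeb2 was at 275 and 257 CPM in EV and 193 and 221 CPM with dHLH-Bmal1, -0.36 ± 0.14 as labelled (adjusted p = 0.144) and -0.42 ± 0.11 exchanged (adjusted p = 0.0203), and with the replicate block -0.36 (adjusted p = 0.0453). The block thus had 5 of 7 factors past the test, against 27.1% of all genes. With the exchange 5 of 7 factors passed, against 28.7% of all genes. Zeb1 (0.21 ± 0.13) and Prrx1 (-0.15 ± 0.13) did not pass either way.

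**Figure D3:**
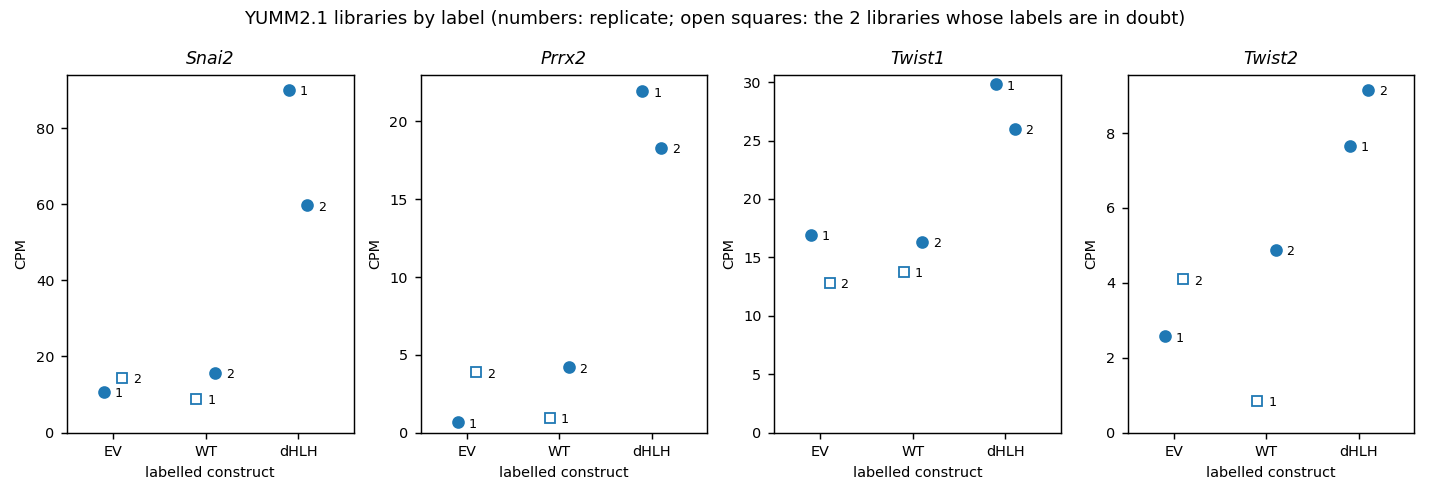
CPM of Snai2, Prrx2, Twist1 and Twist2 in the 6 YUMM2.1 libraries by labelled construct, with the replicate number beside each point and open squares for the 2 libraries whose labels appear exchanged. Both dHLH-Bmal1 points lie above the 4 others in each panel, and exchanging the squares would put 0.664 and 0.940 CPM of Prrx2 in EV and 3.88 and 4.19 CPM in WT-Bmal1.

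WT-Bmal1 against EV in the same YUMM2.1 cells showed no factor past the test as labelled, and 0 of all 14323 genes passed in edgeR, with 98 at an unadjusted p under 0.05 and 1 gene past DESeq2's Wald test. None of the 7 factors tested had an unadjusted p under 0.05. With the labels exchanged Prrx2 passed, at 2.31 ± 0.31 (adjusted p = 0.0163), against 0.705% of all genes, and without both libraries it stood at 2.62 ± 0.59 (adjusted p = 0.0840). The other 6 tested factors did not pass either way. In dHLH-Bmal1 against WT-Bmal1 the same 3 factors passed as against EV, against 13.0% of all genes: Prrx2 by 3.0 ± 0.78 (adjusted p = 0.0483), Snai2 by 2.63 ± 0.33 (adjusted p = 0.00474) and Twist1 by 0.90 ± 0.21 (adjusted p = 0.0345). Those of Prrx2 and Twist1 were lost without any 1 of the 4 libraries (adjusted p up to 0.243 and 0.266), while all 3 passed with the labels exchanged, against 18.9% of all genes, Prrx2 at 2.33 (adjusted p = 0.000300). With the replicate block Twist2 passed as well (1.78, adjusted p = 0.0190), against 26.0% of all genes. Snai1 was below the filter, with 12 counts in dHLH-Bmal1 and 2 in EV, a ratio of 6.74 (95% interval 1.5 to 62.0), 11 of the 12 from replicate 1. The ratio was 7.62 (1.13 to 326) without both doubtful libraries and over 1.5 times higher than as labelled with the labels exchanged (interval 2.22 to 642).

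Sox10 moved with these changes. It was at 501 and 484 CPM in YUMM2.1 EV and 66.2 and 72.9 CPM with dHLH-Bmal1, a fall by 2.82 on the log2 scale (adjusted p = 0.000621; -2.90 with the labels exchanged), whereas Mitf, the master factor of melanocytes, was between 14.2 and 21 CPM in the 6 YUMM2.1 libraries. Over the 12 melanocyte genes the summed level was 516 and 498 CPM in EV and 81.4 and 94.0 CPM with dHLH-Bmal1, and 8 of the 12 had no count in either group. Sox10 made up most of this sum in each library, so the sum mainly repeats the Sox10 values. Whether the fall of Sox10 had a part in the rise of Snai2 or Prrx2 was not tested.

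In YUMM1.7 cells no factor passed edgeR's or DESeq2's test with either construct, and all 8 could be tested. At an unadjusted p under 0.05 stood none with WT-Bmal1 against EV, 3 with dHLH-Bmal1 against EV (Twist2, Prrx1 and Prrx2) and 2 between the constructs (Snai1 and Zeb2). WT-Bmal1 against EV had 0.138% of all genes past the test, dHLH-Bmal1 against EV 0.630% and dHLH-Bmal1 against WT-Bmal1 2.57%. Snai2 was at 34.7 and 34.6 CPM in EV, 33.7 and 32.6 CPM with WT-Bmal1 and 34.2 and 30.8 CPM with dHLH-Bmal1, a difference of -0.09 ± 0.10 for dHLH-Bmal1 (adjusted p = 0.804). Prrx2 was at 47.5 and 44.6 CPM in EV, 51.2 and 48.0 CPM with WT-Bmal1 and 58.3 and 49.7 CPM with dHLH-Bmal1, 0.23 ± 0.10 (adjusted p = 0.393). Over the 8 factors the dHLH-Bmal1 differences ran from -0.78 ± 0.31 for Twist2 (3.68 and 4.81 CPM against 6.95 and 7.77 CPM) to 0.23 ± 0.10 for Prrx2.

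The difference between the cell types was tested itself, in 1 fit of the 9 construct groups. The dHLH-Bmal1 effect was larger in YUMM2.1 than in YUMM1.7 for Prrx2 by 3.01 ± 0.62 (adjusted p = 0.00571), for Snai2 by 2.68 ± 0.32 (adjusted p = 9.25e-05) and for Twist1 by 0.92 ± 0.24 (adjusted p = 0.0173), 3 of 8 factors against 12.4% of all genes. The Twist1 difference was lost without YUMM1.7 EV replicate 1 or YUMM1.7 dHLH-Bmal1 replicate 2 (adjusted p up to 0.0736), and with the labels exchanged 6 of 8 factors differed, against 20.6% of all genes, with Prrx2 at 4.40. With the replicate block Zeb2 also passed (-0.45, adjusted p = 0.0463), against 13.8%. Between YUMM2.1 and aC3 the dHLH-Bmal1 effect differed for Snai2 by 2.88 ± 0.34 (adjusted p = 3.08e-05), for Twist1 by 1.54 ± 0.25 (adjusted p = 0.000553) and for Zeb2 by -0.85 ± 0.15 (adjusted p = 0.00106), against 15.5% of all genes, and each held without any 1 library and with the labels exchanged. Twist1 was thus higher with dHLH-Bmal1 in YUMM2.1 and lower with it in aC3. For Prrx2 no difference between these backgrounds is given, since aC3 had 2 counts in all. The WT-Bmal1 effect on Zeb1 differed by -0.72 ± 0.13 (adjusted p = 0.0341), against 0.208% of all genes. It was lost in 7 of 8 fits that left out 1 library, all but the one without YUMM2.1 EV replicate 1 (values from -0.77 to -0.65, adjusted p up to 0.221). Without both doubtful libraries it was -0.60 (adjusted p = 0.0743). With the labels exchanged it was -0.69 (adjusted p = 0.00220), and Zeb2 also differed (-0.60, adjusted p = 0.00799), against 7.58% of all genes.

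The hairpin experiment measured the constructs again in YUMM2.1 cells, with their own EV libraries and without the 2 doubtful ones. In cells with the control hairpin, Snai2, Prrx2, Twist2 and Zeb1 were higher with WT-Bmal1 and with dHLH-Bmal1 than with EV, and Twist1 with dHLH-Bmal1. With WT-Bmal1 4 of 7 factors passed, against 22.3% of all genes, and with dHLH-Bmal1 5 of 7, against 26.4%. Snai2 was at 15.8 and 19.5 CPM in EV, 69.3 and 54.3 CPM with WT-Bmal1 and 89.1 and 83.5 CPM with dHLH-Bmal1, 3 groups with no overlap. It rose by 1.81 ± 0.14 (adjusted p = 5.77e-08) and 2.30 ± 0.14 (adjusted p = 1.2e-09). Prrx2 was at 2.34 and 2.47 CPM in EV, 13.3 and 12.1 CPM with WT-Bmal1 and 29.9 and 25.9 CPM with dHLH-Bmal1, again without overlap. It rose by 2.40 ± 0.35 (adjusted p = 9.38e-05) and 3.54 ± 0.34 (adjusted p = 4.61e-07).

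Zeb1 was at 39.3 and 43.9 CPM in EV shNC, 96.6 and 75.7 CPM in WT-Bmal1 shNC and 71.5 and 70.1 CPM in dHLH-Bmal1 shNC, rises of 1.05 ± 0.15 (adjusted p = 5.17e-05) and 0.77 ± 0.15 (adjusted p = 0.000698). Both construct groups lay above EV. Twist2 was at 5.67 and 5.61 CPM in EV, 9.92 and 13.8 CPM with WT-Bmal1 and 10.8 and 11.2 CPM with dHLH-Bmal1, rises of 1.08 ± 0.25 (adjusted p = 0.00422) and 0.96 ± 0.25 (adjusted p = 0.00738). Twist1 was at 14.8 and 12.7 CPM in EV, 18.8 and 17.8 CPM with WT-Bmal1 and 28.9 and 19.3 CPM with dHLH-Bmal1, where it rose by 0.84 ± 0.21 (adjusted p = 0.00639). The Snai2, Prrx2 and Zeb1 calls held without any 1 library. The Twist2 call was lost without WT-Bmal1 shNC replicate 2 (adjusted p = 0.0863) and, for dHLH-Bmal1, without EV shNC replicate 2 (adjusted p = 0.0574). That of Twist1 was lost without EV shNC replicate 2 or dHLH-Bmal1 shNC replicate 1 (changes from 0.50 to 1.07 over all libraries left out).

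Zeb2 was at 157 and 163 CPM in EV shNC, 137 and 132 CPM in WT-Bmal1 shNC and 135 and 132 CPM in dHLH-Bmal1 shNC. The difference was -0.25 ± 0.13 for each construct (adjusted p = 0.161 and 0.153). Prrx1 differed by -0.05 ± 0.09 and -0.04 ± 0.09. In dHLH-Bmal1 against WT-Bmal1 with shNC, 1 of 7 factors passed, against 1.91% of all genes: Prrx2, by 1.14 ± 0.28 (adjusted p = 0.0466), lost without any 1 of the 4 libraries (adjusted p up to 0.357). Snai2 differed by 0.49 ± 0.13 (adjusted p = 0.0581). Sox10 moved with these constructs as well, by -1.74 ± 0.11 and -3.77 ± 0.12, and the part of that in the changes was not tested.

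Myh9 hairpins were used to ask whether loss of Myh9 changes the transcriptome as the Bmal1 constructs do. In EV cells both hairpins went with higher Snai2. It was at 15.8 and 19.5 CPM with shNC, 36.6 and 39.6 CPM with hairpin #2 and 36.8 and 38.0 CPM with hairpin #4, 2 groups above and apart from the control. The rises were 1.11 ± 0.14 (adjusted p = 7.42e-05) and 1.08 ± 0.14 (adjusted p = 0.000261), and both held without any 1 library. Hairpin #2 had 2 of 7 factors past the test in EV cells, against 6.65% of all genes, and hairpin #4 had 2, against 1.71%. With hairpin #2 the other factor was Zeb1, at 67.2 and 61.7 CPM against 39.3 and 43.9 CPM, a rise of 0.63 ± 0.15 (adjusted p = 0.0142). It was lost without either shNC library or hairpin #2 replicate 1 (adjusted p up to 0.153). With hairpin #4 it was Twist2, at 12.6 and 12.3 CPM against 5.67 and 5.61 CPM, a rise of 1.13 ± 0.24 (adjusted p = 0.0176), lost without any 1 of the 4 libraries (adjusted p up to 0.186). Prrx2 was at 3.82 and 5.49 CPM with hairpin #2 and 3.83 and 9.09 CPM with hairpin #4, above its 2.34 and 2.47 CPM with shNC, and missed the test with each (0.96 ± 0.39 and 1.43 ± 0.37, adjusted p = 0.163 and 0.0634). The Myh9 changes were -1.51 with hairpin #2 and -0.52 with hairpin #4, while the Snai2 values with the 2 hairpins overlapped. Sox10 was lower with both (-0.83, adjusted p = 7.59e-05, and -0.44, adjusted p = 0.0374), and Cdh5, an endothelial cadherin, was higher with both (1.83 and 1.92, adjusted p = 0.000385 and 0.000485). Their part in the Snai2 rise was not tested.

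**Figure D4:**
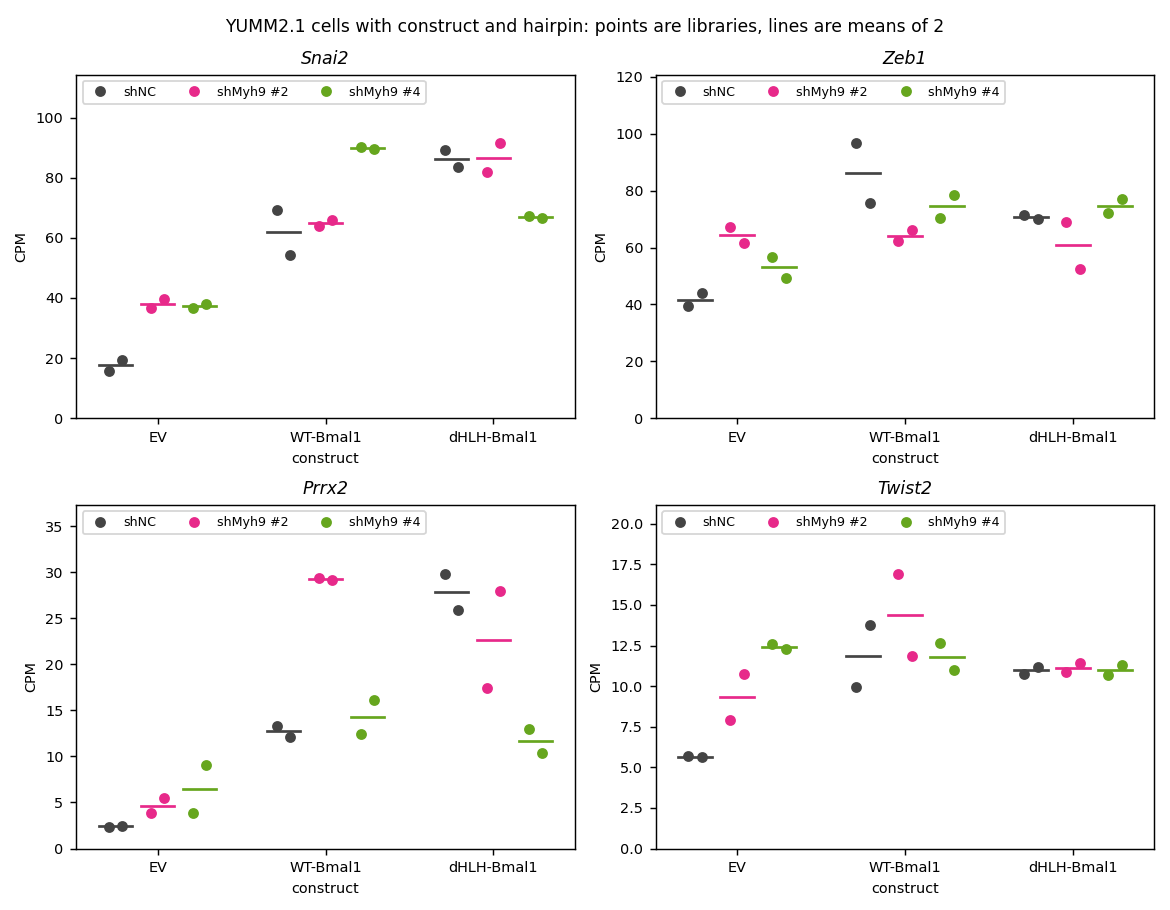
CPM of Snai2, Zeb1, Prrx2 and Twist2 in YUMM2.1 cells by construct and hairpin, with points for libraries and lines for means of 2. Snai2 stands at means of 38.1 and 37.4 CPM with Myh9 hairpins #2 and #4 and at 17.6 CPM with shNC in EV cells, and Prrx2 is above shNC with hairpin #2 in WT-Bmal1 cells and below shNC with hairpin #4 in dHLH-Bmal1 cells.

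In WT-Bmal1 cells hairpin #2 had 1 of 7 factors past the test, against 4.76% of all genes. This was Prrx2, at 29.4 and 29.2 CPM against 13.3 and 12.1 CPM with shNC, a rise of 1.2 ± 0.28 (adjusted p = 0.0190) that was lost without any 1 of the 4 libraries (1.13 to 1.27, adjusted p up to 0.177). Sox10 was lower in the same libraries (98.7 and 99.8 CPM with shNC, 34.9 and 36.8 CPM with hairpin #2, -1.48, adjusted p = 2.39e-07), and its part in the Prrx2 rise was not tested. Hairpin #4 had none in edgeR, against 0.236% of all genes, with 3 at an unadjusted p under 0.05 (Snai2, Twist1 and Prrx1) and 2 past DESeq2's test (Snai2 and Prrx1). Snai2 was at 64.0 and 66 CPM with hairpin #2, within the 69.3 and 54.3 CPM of shNC, and at 90.2 and 89.4 CPM with hairpin #4, above them (0.54 ± 0.13, adjusted p = 0.0778).

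In dHLH-Bmal1 cells hairpin #2 had no factor past edgeR's or DESeq2's test or at an unadjusted p under 0.05, against 0.559% of all genes, and Snai2 was at 81.8 and 91.4 CPM against 89.1 and 83.5 CPM with shNC. Hairpin #4 had 2 of 7, against 15.1% of all genes. Prrx2 fell from 29.9 and 25.9 CPM to 13.0 and 10.4 CPM, a change of -1.25 ± 0.30 (adjusted p = 0.0110), and Zeb2 rose from 135 and 132 CPM to 174 and 213 CPM, by 0.56 ± 0.13 (adjusted p = 0.00824). The Prrx2 call was lost without dHLH-Bmal1 shNC replicate 1 or dHLH-Bmal1 hairpin #4 replicate 2, and that of Zeb2 without either shNC library or hairpin #4 replicate 2 (adjusted p up to 0.157 and 0.167). Snai2 was at 67.4 and 66.5 CPM, below both shNC libraries (-0.35 ± 0.13, adjusted p = 0.0773). Sox10 was higher with hairpin #4 here (22.7 and 26.1 against 45.9 and 44.5 CPM, 0.92, adjusted p = 0.000469) and lower with hairpin #2 (-0.90, adjusted p = 0.00300), and its part in these changes was not tested.

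Whether hairpin #2 acted differently by construct was tested as an interaction. The Snai2 change was smaller with WT-Bmal1 than with EV by -1.04 ± 0.19 (adjusted p = 0.00344) and smaller with dHLH-Bmal1 than with EV by -1.11 ± 0.19 (adjusted p = 0.00264). For Zeb1 these differences were -1.06 ± 0.20 (adjusted p = 0.00535) and -0.87 ± 0.21 (adjusted p = 0.0259). In each interaction 2 of 7 factors passed, against 5.18% of all genes for WT-Bmal1 and 3.29% for dHLH-Bmal1. Zeb1 with hairpin #2 was at 62.2 and 66.1 CPM in WT-Bmal1 cells, below the 96.6 and 75.7 CPM of shNC. The Snai2 differences and the Zeb1 difference for WT-Bmal1 held without any 1 of the 8 libraries, while the Zeb1 difference for dHLH-Bmal1 was lost in 7 of 8 such fits, all but the one without dHLH-Bmal1 hairpin #2 replicate 1 (values from -1.07 to -0.66, adjusted p up to 0.158). Both interactions share the EV libraries. The interaction of hairpin #4 was not among the comparisons.

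Other genes of the EMT pathway were grouped by role. Of 12 further EMT-inducing factors 7 could be tested in control-hairpin cells. With dHLH-Bmal1 2 of them rose and 3 fell, where 26.4% of all genes passed, and their median change was 0.42 beside 0.02 for all genes tested. Foxf1 (2.53 ± 0.42, adjusted p = 0.000198) and Foxc2 (1.61 ± 0.41, adjusted p = 0.00727), forkhead factors of mesoderm and mesenchyme, were higher. The T-box factor Tbx3 (-1.39 ± 0.13, adjusted p = 4.52e-07) was among those that were lower. With WT-Bmal1 2 also rose and 3 fell, where 22.3% of all genes passed, at a median of 0.04. In the first YUMM2.1 experiment, where 13.2% of all genes passed, dHLH-Bmal1 had 1 rise and 3 falls among 7, at a median of the other sign, -0.67, with Foxc2 up by 2.15 ± 0.51 (adjusted p = 0.0359). The exchange of labels gave 2 rises and 3 falls, against 28.7% of all genes, and Foxc2 stood at 3.08 (adjusted p = 0.00140).

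Of 16 partners of these factors (E proteins that dimerize with Twist, the Id proteins that sequester E proteins, and corepressors of Snail and Zeb) 15 were tested. With dHLH-Bmal1 and shNC 4 rose and 2 fell, against 26.4% of all genes, at a median of 0.05. Id2 rose by 1.13 ± 0.13 (adjusted p = 3.90e-06) and Ajuba, a LIM protein that binds Snail, by 1.09 ± 0.20 (adjusted p = 0.000507), whereas Limd1, a related LIM protein, changed by -1.08 ± 0.14 (adjusted p = 1.38e-05). Of 13 genes that act in turnover of Snail, Twist and Zeb proteins, such as ubiquitin ligases and kinases, all 13 were tested and 1 rose, against the same 26.4%, at a median of -0.09. It was Fbxl5 (0.75 ± 0.23, adjusted p = 0.0233), a subunit of a ubiquitin ligase. In the first YUMM2.1 experiment none of the 13 passed with dHLH-Bmal1 as labelled, against 13.2% of all genes, and 2 with the labels exchanged, against 28.7%.

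Of 31 epithelial genes, whose repression is the textbook output of these factors, 6 had enough counts to be tested in the hairpin experiment and 4 in the first YUMM2.1 experiment. Cdh1 (E-cadherin) and Epcam were not among them. With dHLH-Bmal1 and shNC, where 26.4% of all genes passed, 2 epithelial genes rose and none fell, at a median of 1.15, namely the keratins Krt19 (4.91 ± 0.95, adjusted p = 0.000879) and Krt8, both with few counts. Of 30 mesenchymal genes 24 were tested, 13 rose and 4 fell in the same comparison, at a median of 0.63. Acta2 (smooth muscle actin) rose by 7.55 ± 1.23 (adjusted p = 0.000208), the type I collagen genes Col1a1 and Col1a2 by 6.57 ± 0.17 (adjusted p = 4.07e-14) and 5.48 ± 0.41 (adjusted p = 2.31e-08), and the Wnt ligand Wnt5a by 2.68 ± 0.44 (adjusted p = 0.000172). With WT-Bmal1 13 of 24 also rose and 4 fell, against 22.3% of all genes, at a median of 0.54. In the first YUMM2.1 experiment dHLH-Bmal1 had 10 rises and 2 falls among 24, against 13.2% of all genes, at a median of 0.62 beside -0.01 for all genes. Exchanging the labels gave 14 rises and 2 falls, against 28.7%, and without both doubtful libraries 9 and 2.

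In aC3 cells 4 of 22 mesenchymal genes rose and 3 fell with dHLH-Bmal1, against 10.9% of all genes, at a median of 0.05, and 2 rose and 2 fell with WT-Bmal1, against 11.2%. In YUMM1.7 cells 1 of 25 rose with dHLH-Bmal1, against 0.630% of all genes, the growth factor Tgfb1 (1.18 ± 0.25, adjusted p = 0.0454), and none fell. With Myh9 hairpins in EV cells 3 of 24 rose and 2 fell with each hairpin, against 6.65% of all genes for hairpin #2 and 1.71% for hairpin #4, and Col1a1 rose by 3.40 ± 0.19 (adjusted p = 7.12e-09) with hairpin #2 and 1.58 ± 0.22 (adjusted p = 0.000434) with hairpin #4. With hairpin #4 in dHLH-Bmal1 cells 4 rose and 8 fell, against 15.1% of all genes. In B16 controls 18 of 25 were lower and 3 higher than in YUMM2.1 EV, against 54.3% of all genes, at a median of -2.86 beside -0.01 for all genes. In YUMM1.7 EV 13 were higher and 6 lower than in YUMM2.1 EV, against 37.1%. Of 6 immune and endothelial markers 3 were tested in the hairpin experiment, and Cdh5 rose with dHLH-Bmal1 by 1.5 ± 0.28 (adjusted p = 0.000543), while Pecam1, another endothelial marker, did not pass (0.28, adjusted p = 0.592). The summed level of the 6 markers was 13.9 and 9.19 CPM in EV shNC, 23.1 and 21.7 CPM in WT-Bmal1 shNC and 15.4 and 18 CPM in dHLH-Bmal1 shNC, and 2, 3 and 3 of them had no count. Their part in the changes was not tested.

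Among the 8 factors, group means over the 20 groups (log2 CPM) were most alike for Twist1 and Zeb1 (Pearson r = 0.976), Twist1 and Prrx1 (r = 0.967) and Zeb1 and Prrx1 (r = 0.952), and most opposed for Zeb2 and Prrx2 (r = -0.864). These values describe the groups, which share lines and experiments, and the B16 groups, low in Twist1, Zeb1 and Prrx1 alike, weigh on them. As changes from the control group of each experiment, over 15 groups that share 5 controls, Snai2 was most like Prrx2 (r = 0.952) and Twist1 (r = 0.909), while the paralogs Prrx1 and Prrx2 had r = -0.0230, Snai1 and Snai2 -0.0541, Zeb1 and Zeb2 0.0237 and Twist1 and Twist2 0.595. Outside YUMM1.7 Snai1 was at or below 1.41 CPM, so its correlations of changes rest largely on few or no counts and say little about Snai1.

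Of 14117 genes compared with each factor on the same changes, those most like Snai2 were Enah (r = 0.989), an actin regulator of focal adhesions, Lrp1 (r = 0.982), an endocytic receptor, and Ccn1 (r = 0.979), a matricellular protein. Those most like Prrx2 were Arhgap10 (r = 0.964), Ly6e (r = 0.964) and Chst2 (r = 0.963). Twist1 was most like Mthfd2 (r = 0.965), Irx5 (r = 0.955) and Slc9a9 (r = 0.950), Twist2 most like Cdh5 (r = 0.918), Bok and Rasgrf1, and Zeb1 most like Ugdh (r = 0.937), Klhl24 and Gm11266. The highest values for Zeb2 (Synpo, r = 0.891), Snai1 (Fam114a2, r = 0.868) and Prrx1 (Akap13, r = 0.859) were lower. The value for Snai1 rests largely on groups with few or no Snai1 counts. Over the 20 group means the closest genes were Ltbp1 for Twist1 (r = 0.995), Cavin3 for Prrx1 (r = 0.996), Sema5a for Zeb1 (r = 0.985), Dkk2 for Prrx2 (r = 0.984), Cd300lb for Twist2 (r = 0.973), Bcl6b for Snai1 (r = 0.968), Pla2g4a for Snai2 (r = 0.964) and Cyp39a1 for Zeb2 (r = 0.959). The third for Twist2, Gm29101, overlaps it on the same strand, so reads could be shared.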

How the data were processed

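RNA of 40 libraries in 20 groups of 2 was measured by QuantSeq 3′ sequencing. According to the methods and processing notes, the authors aligned reads with bowtie2 to mm10, estimated gene counts with RSEM and tested them with DESeq2. The deposited table holds whole-number counts per Ensembl gene for each library, not normalized, and every per-library column was used. Of the identifiers 99.63% had a symbol.

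Groups came from the GEO labels. The study describes biological replicates for B16-F10, YUMM1.7 and YUMM2.1 libraries shown in its figures, and duplicates for aC3. The labels do not say what separates the 2 libraries of a group. For groups that the study does not call biological replicates, p-values measure a spread that may be technical. Counts were tested with edgeR 4.0.16 in R 4.3.3 (quasi-likelihood test, TMM scaling, filterByExpr) in 1 fit per experiment, with Benjamini-Hochberg adjustment over all genes tested and a threshold of 0.05. CPM used TMM scaling over all 40 libraries. Groups at 0 counts were compared through a floor of 3 counts per library. Intervals and floors cover counting error only. Library totals ran from 3643332 to 22970049 counts. The scripts were tested on simulated counts with known changes, in 1 comparison of each fit. Recovery of 2-fold changes ran from 4.76% in B16 to 71.9% for WT-Bmal1 against EV in YUMM1.7. It was 17.6% for WT-Bmal1 against EV in YUMM2.1. False calls ran from 2 of 91 calls for WT-Bmal1 against EV with shNC to 10 of 53 in B16, with 12 of 76 for WT-Bmal1 against EV in YUMM2.1. Except with shNC the share of false calls was above 0.05 in each simulated comparison. A factor that passed may therefore be unchanged, and 1 that did not pass may still have changed.

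Alternatives were DESeq2 size factors, DESeq2 1.42.0's Wald test, other filters, the replicate number as a block, 1 fit of all 40 libraries, leaving out each library, and exchanging or leaving out the 2 YUMM2.1 libraries whose labels are in doubt. The 8 members and the gene lists were chosen with earlier results of these data known. All 8 members are reported. In lists, the genes named are at most the 4 with the largest change past the threshold and a mean of at least 10 counts. Some alleles and list genes are not reported here. Outside that rule Krt8, Pecam1 and the markers used as checks were named after their values were seen. Correlations are Pearson's r of group means of log2 CPM with a prior count of 2, given as descriptions.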

Additional observations from a re-analysis of the deposited data

Results flagged for a closer look

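Differences between backgrounds in the same contrast were tested as interaction terms in edgeR, and 11 of them passed for the 8 factors. Snai1 was below the count filter in the hairpin interactions. The differences of -0.87 and -0.72 for Zeb1 and 0.92 for Twist1 were lost in some fits without 1 library, as given above. The response of Snai2 to Myh9 hairpin #2 was lower than in EV cells by -1.04 with WT-Bmal1 and by -1.11 with dHLH-Bmal1 (log2 differences of changes), and that of Zeb1 by -1.06 and by -0.87. In these 2 interactions 5.18% and 3.29% of all genes passed. The dHLH-Bmal1 response in YUMM2.1 differed from that in aC3 by 2.88 for Snai2, 1.54 for Twist1 and -0.85 for Zeb2, and from that in YUMM1.7 by 2.68 for Snai2, 0.92 for Twist1 and 3.01 for Prrx2. Of all genes 15.5% passed in the dHLH-Bmal1 difference from aC3 and 12.4% in that from YUMM1.7. The WT-Bmal1 response in YUMM2.1 differed from that in aC3 by -0.72 for Zeb1, against 0.208% of all genes. The YUMM2.1 libraries in the last 7 differences include EV replicate 2, or EV replicate 2 and WT-Bmal1 replicate 1, whose labels are in doubt. The contrasts with aC3 and with YUMM1.7 share the YUMM2.1 libraries.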

How the results depend on the processing

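The 62 calls of the factors kept their direction under every alternative run. All 62 passed with DESeq2 size factors, with a filter of at least 10 mean counts, without a filter and with the replicate block. With DESeq2's Wald test 60 passed, the exceptions being Twist1 in aC3 with dHLH-Bmal1 and Snai2 in B16 against YUMM2.1. In 1 fit of all 40 libraries 48 passed. With the 2 YUMM2.1 labels exchanged 26 of 27 passed and without those libraries 23 of 27, and of 292 fits of a call without 1 library 217 passed. Where a group was left with 1 library, that library was assumed to vary like the other groups.

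The number of factors past the test moved as follows, the cause being not tested. The number of all genes past the test moved with the same settings, so these counts are not results about the factors alone. Without 1 library it ran from 1 to 1 (3 with all libraries) for WT-Bmal1 and from 0 to 3 (3) for dHLH-Bmal1 against EV in aC3, from 0 to 2 (0) in B16, from 1 to 2 (3) for dHLH-Bmal1 against EV and against WT-Bmal1 in YUMM2.1, and from 3 to 4 (4), 3 to 5 (5) and 0 to 1 (1) for WT-Bmal1, dHLH-Bmal1 and their difference with shNC. It ran from 1 to 2 (2) for each hairpin in EV cells, from 0 to 0 (1) for hairpin #2 with WT-Bmal1, from 0 to 2 (2) for hairpin #4 with dHLH-Bmal1 and from 1 to 2 (2) for the dHLH-Bmal1 interaction of hairpin #2. For the lines it ran from 7 to 8 (7) in YUMM1.7, 5 to 6 (6) in B16 and 0 to 3 (1) in aC3 against YUMM2.1, and for the interactions of WT-Bmal1 with aC3 and of dHLH-Bmal1 with YUMM1.7 from 0 to 1 (1) and 2 to 5 (3).

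A single fit of all libraries gave 1 and 0 factors for WT-Bmal1 and dHLH-Bmal1 in aC3, 5 for dHLH-Bmal1 against EV in YUMM2.1, 0 for dHLH-Bmal1 against WT-Bmal1 with shNC, 1 for hairpin #4 in EV cells, 0 for hairpin #2 with WT-Bmal1, 1 for hairpin #4 with dHLH-Bmal1, 1 for the dHLH-Bmal1 interaction of hairpin #2, 2 for aC3 against YUMM2.1 and 0 for the WT-Bmal1 interaction with aC3. Of its 16619 genes 391, 160, 3488, 246, 118, 671, 2106, 347, 412 and 28 passed in these comparisons, in the same order. Exchanging the labels gave 1 for WT-Bmal1 and 5 for dHLH-Bmal1 against EV in YUMM2.1, 4 for aC3 against YUMM2.1, and 2 and 6 for the interactions of WT-Bmal1 with aC3 and dHLH-Bmal1 with YUMM1.7. Leaving both libraries out gave 3, 0 and 5 for the last 3. Of all genes 0.705%, 28.7%, 9.76%, 7.58% and 20.6% passed in the comparisons named for the exchange of labels, in that order. No filter gave 2 and 1 for hairpins #2 and #4 with WT-Bmal1, 3 for aC3 against YUMM2.1 and 5 for the dHLH-Bmal1 interaction with YUMM1.7. Without a filter 993 and 305 of 24774 genes, 939 of 24175 and 2269 of 25566 passed in these. DESeq2's Wald test gave 2 for dHLH-Bmal1 against WT-Bmal1 with shNC, 2 for hairpin #4 with WT-Bmal1 and 2 for aC3 against YUMM2.1. With that test 376 and 244 of 14848 genes and 424 of 15177 passed there.

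Replicate numbers 1 and 2 recur in every group, and the labels do not say what a number shares. The deviations of same-numbered libraries from their group means correlated by 0.133 to 0.297 in all 3 pairs of YUMM2.1 groups, of which EV and WT-Bmal1 hold the doubtful libraries, and by 0.0870 or less on average elsewhere. With the replicate number as a block dHLH-Bmal1 against EV in YUMM2.1 had 5 factors past the test, Twist2 (adjusted p = 0.0449) and Zeb2 (adjusted p = 0.0453) being added, against 27.1% of all genes where 13.2% passed without it. The block also added Twist2 in dHLH-Bmal1 against WT-Bmal1 and Zeb2 in the dHLH-Bmal1 difference between YUMM2.1 and YUMM1.7, and lost no call of the factors.

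Exchanging or leaving out the doubtful libraries for list counts and few-count ratios was added after the data were seen. Member levels moved by less than the spread between replicates in 153 of 160 cases with DESeq2 size factors and in 128 with library totals, and list counts without a filter kept within 1.5 times in 159 of 196 cases. Few or no counts limit what can be said of Snai1 outside YUMM1.7, Prrx2 in aC3, and Twist1, Twist2, Prrx1 and Prrx2 in B16. The B16 libraries, with 19348395 to 22970049 counts, were the deepest.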
